A study of Mus musculus with 4 samples.

Results

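Cluster 1 is one of the clusters that the study drew within the MoMacDC bundle, the monocytes, macrophages and dendritic cells left after T cells, B cells, granulocytes, neutrophils and conventional dendritic cells had been set aside from CD11b+ spleen cells. Its members were taken by the deposited cluster number and comprised 626 of the 6075 bundle cells and of 11631 cells in all. Of these, 577 came from mice given GM-CSF and 49 from mice in steady state. C57BL/6 mice of 8 to 12 weeks had received 3 once-daily subcutaneous injections of 10 µg of GM-CSF, and cells were taken 24 hours after the last one. The steady-state mice received none. CD11b+ splenocytes were sorted and read by CITE-seq, which counts RNA molecules (unique molecular identifiers, UMIs) and antibody tags in the same cell. Each condition was 1 library, and how many mice it pooled is not given in the sources used here. No test of a condition was therefore possible, and the treatment cannot be told apart from the library. All intervals below are exact 95% intervals and cover counting error only.

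Classical monocytes carry Ly6C on their surface and non-classical monocytes largely lack it, and both carry CD115, the receptor for M-CSF encoded by Csf1r. Monocytes that turn toward dendritic cells gain MHC class II, which presents peptides to CD4+ T cells, CD11c, and in some cases CD301b, a galactose-binding lectin encoded by Mgl2. The study sorted cells with high CD115 tags (CD115hi) into subsets named P-I to P-IV by the tags for Ly6C, MHC class II and CD301b. P-I cells are Ly6C+, P-III cells are Ly6C- MHC II+ CD301b-, and P-IV cells are Ly6C- MHC II+ CD301b+.

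Cluster 1 held 14.6% of the bundle cells of the GM-CSF library (577 of 3940, interval 13.6 to 15.8) and 2.30% of those in steady state (49 of 2135, interval 1.70 to 3.02). Of the 8 cell barcodes that occur in both libraries, 0 belonged to cluster 1. The clusters compared most closely below are 0, 2 and 3 of the same library, with 668, 297 and 512 cells. In the study's coarser clustering of all cells, 512 of the 577 cells of cluster 1 shared a cluster with 290 of the 297 cells of cluster 2, while 649 of the 668 cells of cluster 0 and 496 of the 512 of cluster 3 lay in another. Depth was similar, with a median of 5872 UMIs per cell in cluster 1 against 6440 to 6828 in the other 3, and doublets were called in 3 of 577 cells.

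The antibody tags had no part in the clustering, so the subsets are a separate readout. It is not an independent one, since the tags count proteins in the same cells whose RNA was clustered. P-III was the commonest CD115hi subset in cluster 1, unlike in clusters 0, 2 and 3. Of its 155 CD115hi cells, 71 were P-III (45.8%, interval 37.8 to 54.0), 41 were P-IV (26.5%, 19.7 to 34.1), 28 were P-I (18.1%, 12.4 to 25) and 1 was P-II. Cluster 0 was instead P-IV in 167 of 188 CD115hi cells (88.8%) and P-III in 20 (10.6%), whereas cluster 2 was P-I in 53 of 68 (77.9%) and P-III in 4. Seen from the other side, cluster 1 held 71 of the 126 P-III cells of the library (56.3%, interval 47.2 to 65.2), 28 of 187 P-I cells (15%) and 41 of 313 P-IV cells (13.1%). The other 55 P-III cells were spread over 7 clusters, 20 of them in cluster 0 and 10 in cluster 10.

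The name P-III rich nevertheless covers a minority of the cluster, since 422 of the 577 cells (73.1%) were CD115-low and P-III cells made up 12.3% of all its cells. The CD115 gate began at 84 tags. Among the CD115-low cells, 239 of 422 (56.6%, interval 51.8 to 61.4) had Ly6C, MHC II and CD301b tags within the limits seen in P-III cells, which were at most 45 Ly6C tags, at least 73 MHC II tags and at most 20 CD301b tags. The same range took in 57 of 480 CD115-low cells of cluster 0 (11.9%), 33 of 229 of cluster 2 (14.4%) and 103 of 491 of cluster 3 (21.0%). It was not particular to cluster 1, because 214 of 234 such cells of cluster 9 (91.5%) and 131 of 151 of cluster 12 (86.8%) also fell in it. Cells in the P-IV range numbered 95 of 422 in cluster 1 (22.5%, interval 18.6 to 26.8) against 409 of 480 in cluster 0 (85.2%) and 379 of 491 in cluster 3 (77.2%).

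**Figure D1:**
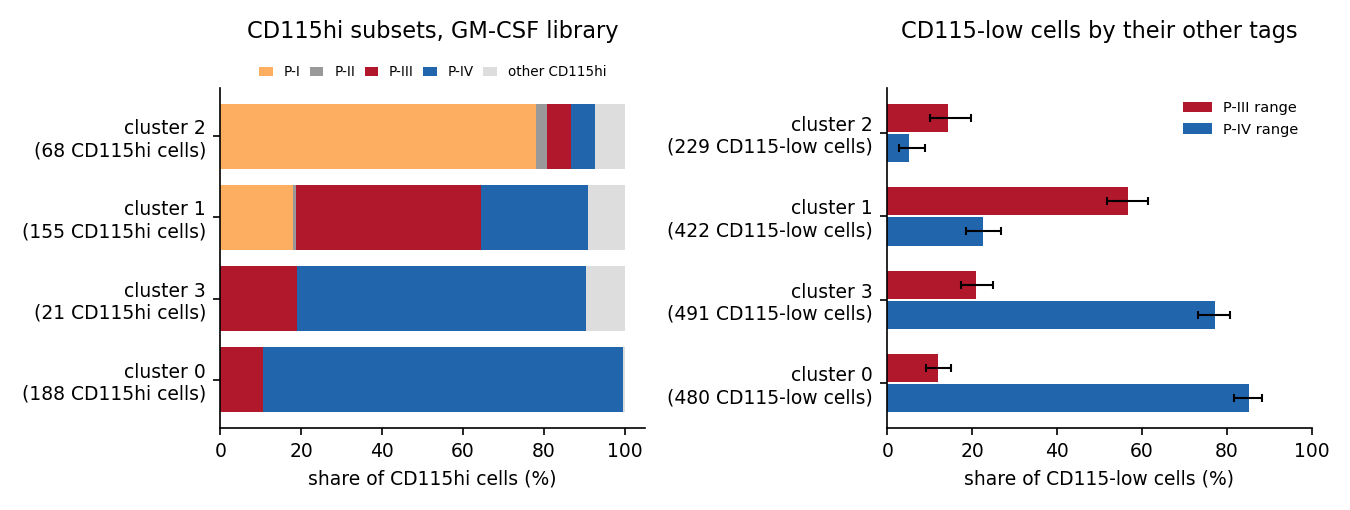
The left panel gives the share (%) of CD115hi cells in each tag subset for clusters 2, 1, 3 and 0 of the GM-CSF library, and the right panel the share (%) of CD115-low cells whose other tags lie in the P-III or P-IV range, with exact 95% intervals. P-III takes 45.8% of the CD115hi bar of cluster 1 and 10.6% of that of cluster 0, and the P-III range takes 56.6% of the CD115-low cells of cluster 1.

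Cell by cell, cluster 1 carried far less of the Ly6C tag than cluster 2 and far less of the CD301b tag than cluster 0. The median Ly6C count per cell was 19 (quartiles 13 and 36) in cluster 1, 77 (45 and 114) in cluster 2 and 15 in cluster 0. The median CD301b count was 11 (7 and 26) in cluster 1, 10 (6 and 14) in cluster 2, 103.5 in cluster 3 and 187 (64 and 454.5) in cluster 0. Neutrophils and T cells of the same library, which should lack CD301b, had medians of 6 and 3. The CD301b quartiles of clusters 1 and 2 thus overlapped, while those of clusters 1 and 0 did not.

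MHC II and CD11c, the integrin used to mark dendritic cells, lay between the neighbours. The median MHC II count was 271 (176 and 428) in cluster 1, 100 in cluster 2, 399.5 in cluster 0 and 393 in cluster 3. For CD11c the medians were 131, 77, 263 and 176.5 in the same order. CD115 did not separate cluster 1 from cluster 0, with medians of 52 (29 and 87) and 57, and it was lowest in cluster 3 at 26. Against all other bundle cells, the mean tag count of cluster 1 was 1.38-fold for CD115 (interval 1.37 to 1.4), 0.652-fold for CD11c, 0.427-fold for Ly6C, 0.805-fold for MHC II and 0.277-fold for CD301b (0.274 to 0.281). The medians lay closer for Ly6C (19 against 20), CD301b (11 against 18), MHC II (271 against 294) and CD11c (131 against 174). For CD115 they were 52 against 34. Total tags per cell also differed, with medians of 538 in cluster 1, 1101 in cluster 0, 368 in cluster 2 and 854 in cluster 3, and per total tag the CD115 and CD301b ratios were 1.54 and 0.434.

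**Figure D2:**
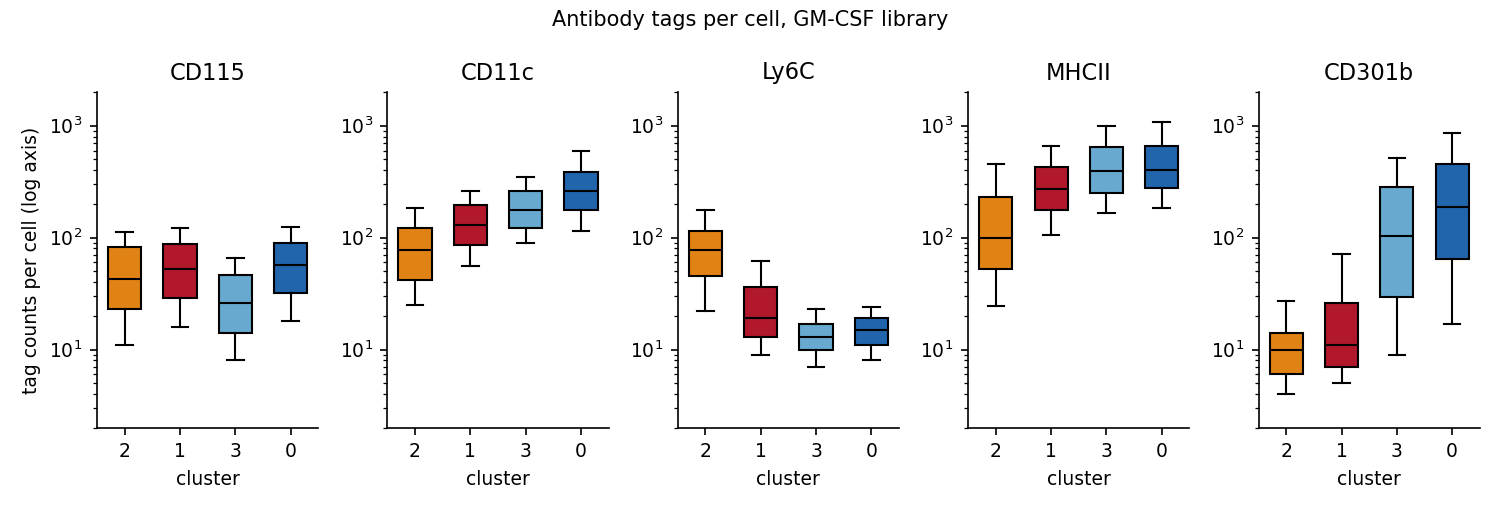
Boxes show the quartiles and median of each tag count per cell (log axis) in clusters 2, 1, 3 and 0 of the GM-CSF library, with whiskers from the 10th to the 90th percentile. Cluster 1 has a median of 19 for Ly6C against 77 in cluster 2, and of 11 for CD301b against 187 in cluster 0.

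The RNA of the cluster held transcripts from the monocyte and macrophage lists and very few from the lymphocyte lists. In all, 3448700 UMIs were summed over its GM-CSF cells. All 10 genes of the classical monocyte list were detected and summed to 4728 CPM (UMIs scaled to a common total per group). Most of that sum was Plac8, which is not restricted to monocytes. The 12 genes of the red pulp and tissue macrophage list summed to 324 CPM, near the neutrophil list sum given below. These sums alone do not establish a cell type. The 5 B cell genes measured summed to 4.06 CPM with 4 of them at 0, the 4 T cell genes to 0.580 CPM with 3 at 0, and all 4 plasmacytoid dendritic cell genes were at 0 UMIs. The 6 genes of conventional type 1 dendritic cells summed to 8.41 CPM. Genes of the neutrophil list, present as 297077 CPM in the neutrophils of the library, summed to 265 CPM in cluster 1 and to 240 to 337 CPM in clusters 0, 2 and 3, so their sum differed little between the clusters compared below.

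Because the clusters were drawn from the same RNA, differences between them in gene expression are descriptions of the cluster and were not tested. Ratios are of CPM in counts summed over cells, and a gene was counted as higher or lower only when it had at least 50 UMIs over both groups, with 0.5 counts added to each sum. The ratio of a named gene is given without added counts, unless said otherwise, from 10 UMIs over both groups. Almost no gene was cluster 1's own. Of 6429 genes with at least 50 UMIs in cluster 1, 1 (0.0156%) was at least 2-fold above each of clusters 0, 2 and 3, and 0 of 4703 (0%) were at least 2-fold below each. The 1 gene was Rora, a nuclear receptor, at 14.8 CPM from 51 UMIs against 5.89 to 7.05 CPM in the other 3, or 2.04 times the highest of them with the added counts. The ratio lay so near 2 that the call turned on the settings. It was 1.87 in G1 cells alone and 1.995 with 1 count added in place of 0.5, and a minimum of 100 UMIs removed the gene while leaving its ratio unaltered.

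Mrc1, the macrophage mannose receptor CD206, came next. It stood at 56.5 CPM in cluster 1 (interval 48.9 to 65.1, 195 UMIs), 29.1 in cluster 3, 23.3 in cluster 0 and 7.05 in cluster 2. A UMI of Mrc1 was found in 121 of 577 cells of cluster 1 (21.0%, interval 17.7 to 24.5), in 12.5% of cluster 3, 11.4% of cluster 0 and 3.70% of cluster 2, and in 0.224% of neutrophils, whose median depth was 4404 UMIs. After every cell was thinned to 1000 UMIs these shares were 3.64%, 4.10%, 3.44% and 0%, and the excess over clusters 0 and 3 was not detectable at that depth. Cd2, an adhesion receptor better known from T cells, was at 29.9 CPM (24.4 to 36.2) against 17.4 in cluster 3, 14.5 in cluster 0 and 8.56 in cluster 2. It gave a UMI in 14.6% of cluster 1, 9.96% of cluster 3, 8.38% of cluster 0 and 5.05% of cluster 2. In neutrophils it gave a UMI in 0 of 893 cells (interval up to 0.412%). At 1000 UMIs per cell the shares of clusters 1, 3, 0 and 2 were 3.29%, 1.56%, 2.10% and 1.35%, and the interval of cluster 1 overlapped the others. Atp2a3, a calcium pump, and Galns, a lysosomal sulfatase, followed at 1.66 and 1.57 times the highest of the 3 with the added counts. At the low end, Tspan3, a tetraspanin, and Pfkl, a glycolytic enzyme, were at 0.598 and 0.617 of cluster 3, and the survival genes Bcl2a1d and Bcl2a1a, near-identical copies whose reads cannot be assigned surely, at 0.613 and 0.632 of the lowest of the 3 with the added counts.

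Most genes that separated clusters 2 and 0 had intermediate levels in cluster 1. On the log scale from cluster 2 (0) to cluster 0 (1), the 416 genes at least 2-fold higher in cluster 0 had a median position of 0.58 in cluster 1 (quartiles 0.38 and 0.74), and 370 of them (88.9%) lay strictly between the 2 clusters. The 353 genes higher in cluster 2 had a median of 0.46 (0.33 and 0.61), with 327 (92.6%) between. Cluster 3 lay at 0.91 and 0.86 on the same scales, next to cluster 0. An intermediate place was not particular to cluster 1. Cluster 8, a cycling cluster, lay at 0.44 and 0.56, with 79.1% and 79.3% of the genes between, cluster 10 at 0.77 and 0.45, with 73.6% and 80.7% between, and cluster 7 at 0.28 and 0.33.

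The position was also taken for single cells. In each cell thinned to 1000 UMIs, the UMIs of the genes higher in cluster 0 were taken as a share of the UMIs of both gene groups. The median share was 49.3% in cluster 1 (5th to 95th percentile 30.3 to 69.9), 23.5% in cluster 2, 77.3% in cluster 0 and 74.5% in cluster 3. In cluster 10 it was 58.8% over a wider span (19.7 to 85.6), with 59 of its cells too shallow to be included. By the 5th percentile of cluster 0 (61.3%) and the 95th of cluster 2 (46.2%), 105 cells of cluster 1 (18.2%) fell in the range of cluster 0, 235 (40.7%) in that of cluster 2 and 237 (41.1%) in neither. The values formed 1 broad peak. Cluster 1 was drawn from this RNA apart from clusters 0 and 2, and the share uses genes chosen on those clusters. The shape therefore cannot show whether cluster 1 is a mixture. The tag subsets lined up along this share, with medians of 37.4% in P-I cells of cluster 1, 49.2% in P-III, 50% in CD115-low cells and 59.7% in P-IV.

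**Figure D3:**
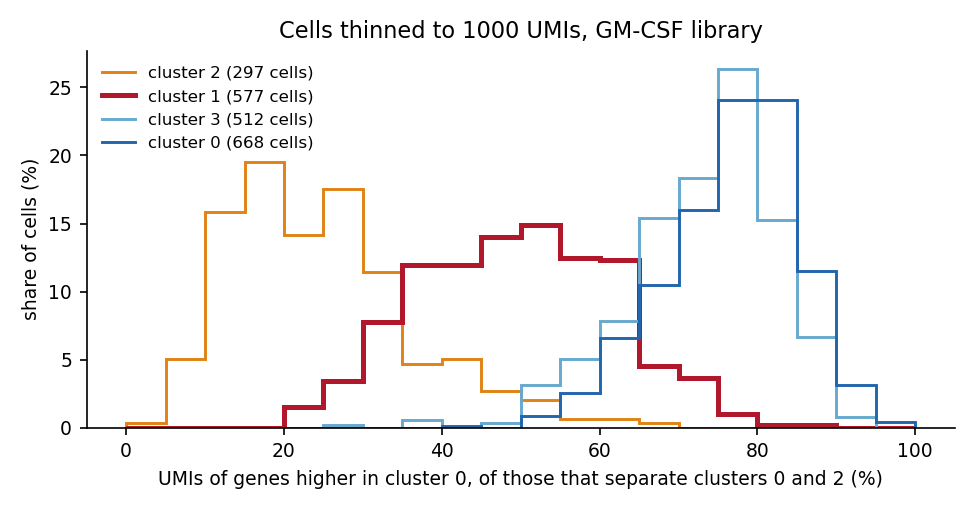
The horizontal axis is the share (%) of a cell's UMIs from genes higher in cluster 0, among all genes that separate clusters 0 and 2, in cells thinned to 1000 UMIs, and the vertical axis the share (%) of each cluster's cells. Cluster 1 has its median at 49.3%, between cluster 2 at 23.5% and cluster 0 at 77.3%.

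Against cluster 0, cluster 1 held more monocyte transcripts. It was at least 2-fold higher for 162 of 8301 genes (1.95%) and at least 2-fold lower for 160 (1.93%), with a median ratio over all genes of 1.0. Among the lower genes were 4 of the erythroid list, which summed to 1.45 CPM in cluster 1 and 410 in cluster 0. The number of cells that held these erythroid UMIs was not counted. Plac8, abundant in monocytes and many other myeloid cells, was at 3440 CPM against 555 (6.20-fold, interval 5.94 to 6.47), and Lyz2, the lysozyme of myeloid cells, at 4492 against 1361 (3.30-fold). Cx3cr1, the fractalkine receptor of non-classical monocytes, was at 56.0 against 4.10 CPM (13.6-fold, 8.50 to 23.2), Ace, the angiotensin-converting enzyme, at 45.8 against 3.24 CPM (14.1-fold), and the transcription factor Cebpb at 266 against 82.2 CPM (3.23-fold). Nr4a1, required for non-classical monocytes, was 2.90-fold higher and C3, a complement component, 7.05-fold.

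By list, 3 of the 5 classical monocyte genes measured and 5 of 10 non-classical genes were at least 2-fold higher in cluster 1 than in cluster 0, with medians of 2.29 and 2.05. The exception at least 2-fold lower was Cd36, a scavenger receptor, at 0.193 of cluster 0. Type I interferon response genes were higher for 3 of 10, with a median of 1.62. Ribosomal protein genes had a median of 1.05 with 0 of 81 past 2-fold in either direction, and glycolysis genes had 0 of 12.

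Genes of the CD301b+ state were among those lower than in cluster 0. Mgl2, which encodes CD301b itself, was at 110 CPM against 527 (0.208, interval 0.186 to 0.232), and Cd209a, a lectin of monocyte-derived dendritic cells, at 78.0 against 456 (0.171). Reads of Cd209a can be split with its near copies in the Cd209 family. Fgfr1, a fibroblast growth factor receptor, was at 46.7 against 294 CPM, Mmp12, the macrophage elastase, at 63.2 against 530, and Il1rl1, the receptor for IL-33, at 6.96 against 82.3. The chemokine Ccl17 had 6 UMIs against 218. Clec10a, which encodes CD301a and is close in sequence to Mgl2, did not follow it, at 169 CPM in cluster 1 and 156 in cluster 0. Of the 32 genes the study listed for P-IV, 19 were at least 2-fold lower and 0 higher, with a median of 0.47, but that list was chosen on these samples and is no independent evidence.

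Per cell, Mgl2 gave a UMI in 26.7% of cluster 1, 80.1% of cluster 0, 79.7% of cluster 3, 10.1% of cluster 2 and 2.91% of neutrophils. At 1000 UMIs per cell the share was 8.84% in cluster 1 and 36.5% in cluster 0. RNA and tag thus both set clusters 0 and 3 above clusters 1 and 2 for CD301b. Within these pairs they ran less alike. The median tag counts were 187 in cluster 0 and 103.5 in cluster 3, and 11 in cluster 1 and 10 in cluster 2.

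Against cluster 2, cluster 1 was at least 2-fold higher for 133 of 7510 genes (1.77%) and lower for 151 (2.01%), with an all-gene median of 1.04. Of 10 measured genes of MHC class II presentation, 2 were at least 2-fold higher and 0 lower, with a median of 1.55, and 9 had ratios above 1. H2-Aa, an MHC class II chain, was at 5040 CPM against 3309 (1.52-fold), and H2-DMb2, a chain of the peptide-loading H2-M, at 73.4 against 28.7 (2.55-fold). The MHC class II presentation list summed to 25199 CPM in cluster 1, 16568 in cluster 2, 33598 in cluster 3 and 32405 in cluster 0. The lists of dendritic cell markers did not run that way, with 0 of 4 dendritic progenitor genes at least 2-fold higher and 2 lower, and 1 or 0 genes measured in the others. Irf4, a transcription factor of type 2 and monocyte-derived dendritic cells, was at 50.7 against 14.1 CPM (3.6-fold), and Id3, an inhibitor of DNA binding, at 78.3 against 14.1 (5.55-fold). Mrc1 was 8.02-fold (interval 4.66 to 14.9), Cd209a 4.07-fold (2.89 to 5.88) and Mgl2 2.44-fold (1.94 to 3.12) above cluster 2, among 5 of 11 C-type lectin genes at least 2-fold higher and 1 lower.

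Irf4 in cluster 1 was close to its level in cluster 0, at 51.6 CPM. Zbtb46, which marks the classical dendritic cell lineage, was not, at 17.7 CPM against 40.2 in cluster 0, 50.9 in cluster 3 and 7.05 in cluster 2. Spi1, which encodes PU.1, varied little, from 503 CPM in cluster 0 to 619 in cluster 2. The GM-CSF receptor genes Csf2ra and Csf2rb were at 172 and 250 CPM in cluster 1 and at 147 to 262 and 248 to 267 CPM in the other 3, and 0 of 10, 0 of 9 and 0 of 9 genes of the receptor and STAT5 feedback list passed 2-fold against clusters 0, 2 and 3.

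Interferon response genes were lower in cluster 1 than in cluster 2. Of 12 interferon genes, 9 were at least 2-fold lower in cluster 1, 0 were higher and the median was 0.40. Isg15, a ubiquitin-like protein induced by interferon, was at 29.0 CPM against 114, and Cxcl9, a chemokine induced by interferon gamma, at 2.90 against 80.6. Of 8 classical monocyte genes, 4 were at least 2-fold lower and 0 higher. Ly6c2, near-identical to Ly6c1, was at 8.41 against 59.4 CPM (0.141, interval 0.0908 to 0.214), Hp, haptoglobin, at 0.0874 of cluster 2, Plac8 at 0.514 and Lyz2 at 0.472.

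Against cluster 3, in which 4.10% of cells were CD115hi, 128 of 8039 genes (1.59%) were at least 2-fold higher and 194 (2.41%) lower, with an all-gene median of 0.985. Fn1, fibronectin, was at 286 CPM against 18 (15.9-fold, interval 12.3 to 21.0), and against 125 in cluster 0 and 214 in cluster 2. Ace and Cx3cr1 were 15.6-fold and 13.6-fold higher. All 6 measured genes of the dendritic progenitor list were at least 2-fold lower, among them Flt3, the receptor for FLT3L, at 0.111. Itgae, the CD103 integrin chain, was at 0.0382 and Cd209a at 0.121. Immediate early and heat shock genes, which respond to stress, were at least 2-fold lower for 8 of 13 with a median of 0.41, and Egr1 and Jun were at 0.159 and 0.344.

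**Figure D4:**
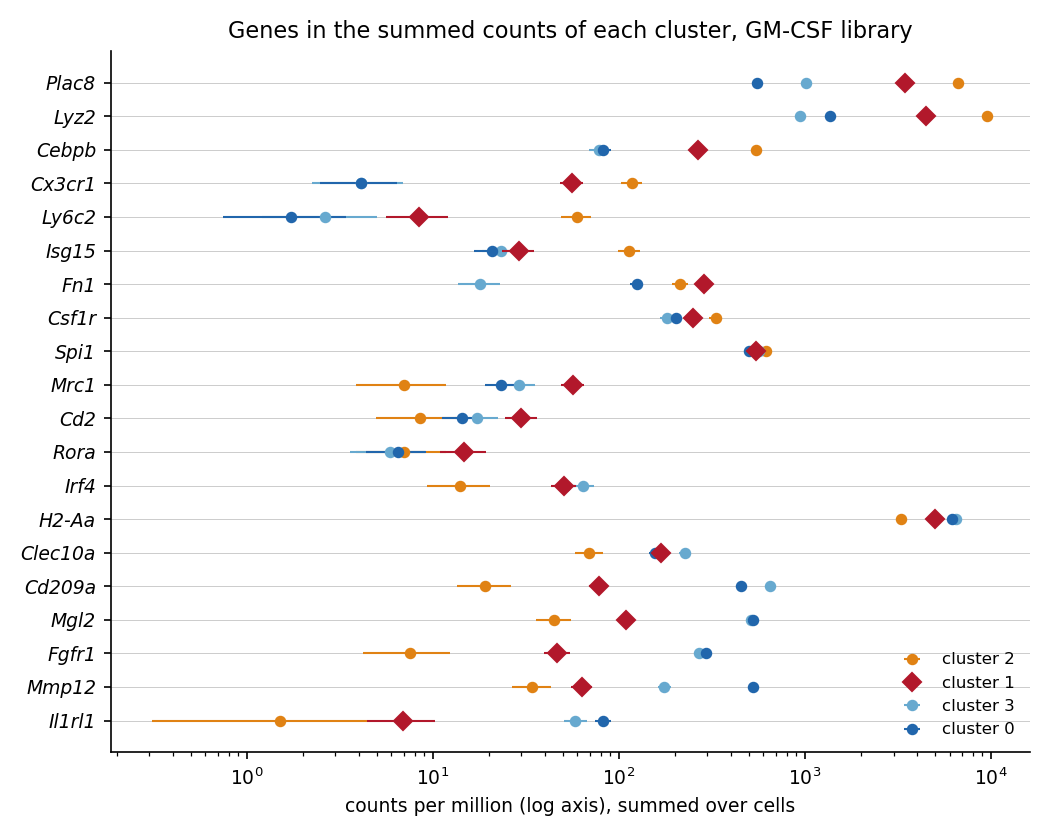
Each row gives the level of 1 gene in CPM (log axis) in the summed counts of clusters 2, 1, 3 and 0 of the GM-CSF library, with exact 95% Poisson intervals. Plac8, Lyz2 and Cx3cr1 order the clusters from 2 through 1 to 0, Mgl2 and Fgfr1 in the opposite way, and Mrc1 is highest in cluster 1 at 56.5 CPM.

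**Figure D5:**
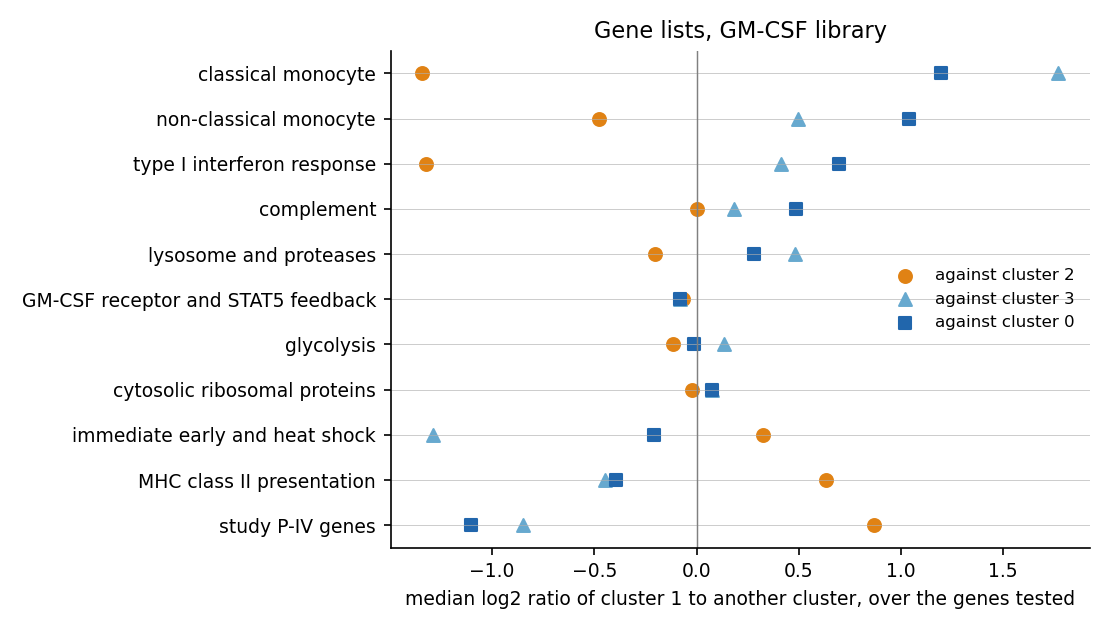
Points give the median log2 ratio of cluster 1 to clusters 2, 3 and 0 over the measured genes of each list in the GM-CSF library. Monocyte and interferon lists lie above 0 against clusters 0 and 3 and below 0 against cluster 2, the MHC class II and P-IV lists the other way round, and the GM-CSF receptor and ribosomal lists lie near 0.

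The promoters of 3 genes are shown because Mrc1 stood highest in cluster 1 while Mgl2 and Plac8 ran in opposite directions over clusters 2, 1 and 0. They are the 250 bases before the RefSeq start site in GRCm38.p6, and capitals mark GAGGAA or its complement TTCCTC, the core bound by PU.1. The GENCODE annotation of the same build starts the first exons slightly earlier, at base 14229392 for Mrc1, 70130329 for Mgl2 and 100572245 for Plac8, so the last bases of each window are exonic there and the rest lies upstream of the gene.
Mrc1, chr2:14229164-14229413, plus strand: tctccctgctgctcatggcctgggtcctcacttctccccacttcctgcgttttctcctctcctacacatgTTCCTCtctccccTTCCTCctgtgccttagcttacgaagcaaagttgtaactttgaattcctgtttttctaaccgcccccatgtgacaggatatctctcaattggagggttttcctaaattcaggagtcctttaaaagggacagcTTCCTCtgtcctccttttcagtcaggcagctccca
Mgl2, chr11:70130107-70130356, plus strand: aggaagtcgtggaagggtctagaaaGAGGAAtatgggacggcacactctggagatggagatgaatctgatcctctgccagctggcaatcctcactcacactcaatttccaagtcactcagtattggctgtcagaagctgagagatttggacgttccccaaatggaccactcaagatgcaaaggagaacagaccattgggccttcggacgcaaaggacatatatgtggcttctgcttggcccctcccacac
Plac8, chr5:100572206-100572455, minus strand: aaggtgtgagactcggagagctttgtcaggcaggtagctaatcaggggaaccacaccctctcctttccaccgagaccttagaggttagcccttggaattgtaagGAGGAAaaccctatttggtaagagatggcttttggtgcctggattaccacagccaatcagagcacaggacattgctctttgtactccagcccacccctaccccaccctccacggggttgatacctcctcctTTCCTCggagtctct

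The motif began 180, 167 and 35 bases before the Mrc1 start site, 225 before that of Mgl2, and 146 and 15 before that of Plac8. The Plac8 match at 15 bases lies in the stretch that the GENCODE annotation counts as exonic. Searched on both strands, it occurs in 23.3% of 32851 RefSeq promoter windows of the same length. TTCNNNGAA, the spacing bound by STAT5, which signals downstream of the GM-CSF receptor, was in 0 of the 3 windows and in 7.02% of all. A match is only a run of letters, and Mgl2 and Plac8, which run in opposite directions here, both hold GAGGAA. Plac8 has a further RefSeq start, whose window holds neither motif.

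With the tag subset held fixed, a small share of genes still differed between cells of cluster 1 and their counterparts in other clusters. Some difference is built in, because the clusters were drawn from RNA. Its 71 P-III cells were compared with the 55 P-III cells elsewhere, and 11 of 2295 genes (0.479%) were at least 2-fold higher and 41 (1.79%) lower. Ifi204, an interferon-inducible DNA-binding protein, was at 109 CPM against 15.2 (7.18-fold, interval 2.86 to 23.2), Clec4n, the lectin dectin-2, 2.29-fold, Ifitm2 2.22-fold and Mrc1 2.55-fold (1.23 to 5.83). Among the lower genes, Mmp12 was at 55.9 CPM against 350 and Fgfr1 at 17 against 122. All 4 measured mitosis genes were lower, with the proliferation marker Mki67 at 4.86 CPM against 274, and the P-III cells elsewhere include members of cycling clusters. With G1 cells alone, 58 against 28, the counts were 19 higher and 19 lower of 1423 genes. After thinning to 1000 UMIs, 2 of 315 genes were called.

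The 41 P-IV cells of cluster 1 were likewise compared with the 167 of cluster 0, with 68 of 3936 genes (1.73%) at least 2-fold higher and 117 (2.97%) lower. The 4 lowest all encode globin chains of red cells, and the erythroid list summed to 0 UMIs in the P-IV cells of cluster 1 and 1597 CPM in those of cluster 0. Most erythroid UMIs of cluster 0 lay in these P-IV cells. How many cells held them was not counted, and no limit was set on the share of a single cell. Plac8 was at 2559 CPM against 432 (5.93-fold, interval 5.26 to 6.67), Ifitm6 4.88-fold, Lyz2 3.33-fold and Cebpb 2.92-fold. Mgl2 was at 260 CPM against 591 (0.440), Cd209a at 107 against 502 (0.214), Mmp12 at 74.3 against 521 and Il1rl1 at 0.176. Ccl17 had 0 UMIs against 72. Of the 32 P-IV genes of the study, 16 were at least 2-fold lower and 0 higher. The CD301b tag ran the same way, with a median count of 67 (37 and 131) in the P-IV cells of cluster 1 and 331 (149 and 739.5) in those of cluster 0.

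In P-I cells, tag and RNA for Ly6C differed in degree. Their tags were high by selection, with at least 47 Ly6C counts in each cell. The 28 P-I cells of cluster 1 had a median of 70 Ly6C tags and the 53 of cluster 2 had 105. Yet Ly6c2 RNA came to 1 UMI (5.39 CPM) in the former and 43 UMIs (113 CPM) in the latter, a ratio of 0.0477 (interval 0.00118 to 0.280). Mrc1 gave 13 UMIs (70.1 CPM) in the P-I cells of cluster 1 and 0 in those of cluster 2. Over all genes, 26 of 1659 (1.57%) were at least 2-fold higher and 48 (2.89%) lower.

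Within cluster 1 few of the genes with enough UMIs to be compared differed 2-fold between the tag subsets. P-IV cells were at least 2-fold higher than P-III cells for 11 of 2015 genes (0.546%) and lower for 11 (0.546%). Mgl2 followed the gate, at 260 CPM in P-IV and 29.2 in P-III cells (8.91-fold, interval 4.76 to 18.2), with a UMI in 24 of 41 (58.5%) and 7 of 71 cells (9.86%). Fgfr1, whose product was not tagged, was also higher, at 153 against 17 CPM (8.97-fold, 3.95 to 23.8, from 37 and 7 UMIs). Cd2 went the other way, at 8.25 CPM in P-IV and 48.6 in P-III cells (0.170, 0.0192 to 0.699, from 2 and 20 UMIs). P-I cells were at least 2-fold above P-III cells for 6 of 1791 genes (0.335%) and below for 20 (1.12%), with Chil3, a chitinase-like protein of classical monocytes, 4.86-fold higher and Id3 at 10.8 CPM against 136.

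The CD115-low cells of cluster 1 in the P-III range were close to its CD115hi P-III cells, with 44 of 4598 genes (0.957%) at least 2-fold higher, 13 (0.283%) lower and a median of 0.989. Csf1r RNA was at 242 CPM against 302 (0.802, interval 0.651 to 0.994) and Plac8 at 0.983 of the P-III cells. The immediate early genes Egr1 and Jun were 5.39-fold and 2.15-fold higher in the CD115-low cells, and 3 of the 10 measured genes of that list were at least 2-fold higher with a median of 1.60.

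Cluster 1 was mostly out of cycle. By the deposited phases, 108 cells were in S and 2 in G2/M, 19.1% in all (interval 15.9 to 22.5), against 13.8% in cluster 0, 16.8% in cluster 2 and 9.18% in cluster 3. Scored again from cells thinned to 1000 UMIs, the shares were 27.0%, 24.9%, 30.3% and 24.4%, and the order was not kept. Against the whole rest of the bundle, which holds cycling clusters, 48 of 10279 genes (0.467%) were at least 2-fold higher in cluster 1 and 769 (7.48%) lower. The lowest were mitosis genes such as Cenpe, a kinetochore motor, with 0 UMIs in cluster 1 and 1805 in the rest.

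The 49 steady-state cells of the cluster looked different in tags and RNA. They included 9 CD115hi cells, of which 7 were P-I, 1 was P-III and 0 were P-IV. Their median tags were 372 for Ly6C, 40 for MHC II, 3 for CD11c and 3 for CD301b. The GM-CSF cells of the cluster thus had lower Ly6C and higher MHC II and CD11c counts. Cluster 2 differed between the libraries in the same directions, with median Ly6C counts of 713 in steady state and 77 after GM-CSF, MHC II counts of 14 against 100, and CD11c counts of 3 against 77, so these differences were not particular to cluster 1.

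Between the libraries, 487 of 6739 genes (7.23%) were at least 2-fold higher in the GM-CSF cells of cluster 1 and 454 (6.74%) lower, with a median of 0.955. Htra3, a serine protease, had 380 UMIs against 0 and was at least 12.7-fold higher, bounded by 3 counts in the steady-state cells. By the same bound, H2-DMb2 was at least 8.44-fold, Mmp12 at least 7.28-fold and Cd200r1 at least 5.34-fold higher. In the GM-CSF library Htra3 was not particular to cluster 1. It gave a UMI in 44.0% of cluster 1, 41.5% of cluster 0, 35.4% of cluster 2 and 45.7% of cluster 3. Mgl2 was 6.31-fold, Mrc1 3.90-fold (interval 1.64 to 12.2), Itgax, which encodes CD11c, 3.57-fold and H2-Aa 1.62-fold higher. Of the 29 P-IV genes of the study that were measured, 20 were at least 2-fold higher and 2 lower.

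Lower in the GM-CSF cells were Apoe, a lipid carrier, at 9.86 CPM against 2027, Ly6c2 at 8.41 against 489, F13a1, a coagulation factor of monocytes, at 0.0196, Cebpb at 0.196, Lyz2 at 0.275 and Cd209a at 0.359. Immediate early and heat shock genes were at least 2-fold lower for 10 of 13 with a median of 0.22, and Hspa1a at 0.0211. Interferon genes were lower for 6 of 7. Cd209a thus stood higher in the steady-state cells of cluster 1 although Mgl2 and Mmp12 stood lower.

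The steady-state cells nonetheless differed from cluster 2 of their own library in some of the same genes. There, 94 of 5656 genes (1.66%) were at least 2-fold higher in cluster 1 and 177 (3.13%) lower. Cd209a was at 217 CPM against 15.1 (14.3-fold, interval 9.41 to 22.3), Irf4 5.11-fold, Id3 4.98-fold, Clec10a 4.31-fold and H2-Aa 2.55-fold higher, and Ly6c2 was at 0.596 and Cxcl9 at 0.0402.

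Over the 13 clusters of the GM-CSF library with at least 50 cells, P-III cells made up 12.3% of cluster 1, 4.32% of cluster 4, 4.0% of cluster 10, 2.99% of cluster 0 and less elsewhere. The genes whose CPM ordered these clusters most like that share, among 2590 with at least 200 UMIs in cluster 1, were Fam120a (Spearman's rho 0.899), Fam168a (0.882), Cd81, a tetraspanin (0.859), Ap3b1, an adaptor of vesicle sorting (0.836), and Capza2, an actin-capping subunit (0.836). They were chosen for this likeness, over clusters of 1 library, and their levels separated cluster 1 little: Fam120a was at 143 CPM there, 146 in cluster 0, 132 in cluster 3 and 126 in cluster 2.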

How the data were processed

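CD11b+ splenocytes of 1 steady-state and 1 GM-CSF library were profiled by CITE-seq. The authors counted UMIs with Cell Ranger 3.0.2 on mm10 and antibody tags by means of CITE-seq-Count. They retained cells of 200 to 5000 genes with at most 15% mitochondrial UMIs and integrated and clustered them with Seurat 3.6.0 from 2000 variable genes. The deposited RNA and tag counts are whole numbers per cell, and the deposited metadata hold mitochondrial percent, cluster, subset and phase. RNA and tag counts were used as deposited. Per cluster, counts were summed and given as CPM with exact Poisson intervals, ratios had 0.5 counts added to rank genes, and shares had exact Clopper-Pearson intervals. Genes at 0 in one group were bounded with 3 counts. Doublets were called with Scrublet in scanpy 1.11.5 and kept. The scripts were tested on simulated data. Named genes were the extremes of each comparison, members of the gene lists with the largest and smallest ratios or a defining role, and the antigens of the tags. Genes with opposite directions in the libraries (Cxcl2, Hspa1a and Zdhhc5) were named after their values were seen. Members, lists and comparisons were chosen with earlier results of these data known. With 1 library per condition, no p-value was computed. Alternatives are given in the closing section.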

Additional observations from a re-analysis of the deposited data

Results flagged for a closer look

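A few genes stood at least 2-fold to one side of a neighbouring cluster in the GM-CSF library and at least 2-fold to the other side in steady state. They numbered 2 of 1457 genes (0.137%) against cluster 0, 1 of 5591 (0.0179%) against cluster 2 and 1 of 3286 (0.0304%) against cluster 3. The differences between the libraries were not tested, because each is 1 library. Cxcl2, a chemokine that draws neutrophils, was in cluster 1 at 0.461 of cluster 0 after GM-CSF (16.8 against 36.7 CPM), whereas in steady state it had 64 UMIs in cluster 1 (185 CPM) and 0 in the 14 cells of cluster 0, where the limit that 0 counts allow is 22.5 CPM. Against cluster 3, Cxcl2 was at 0.286 after GM-CSF (16.8 against 59.2 CPM) and 6.63-fold higher in steady state (185 against 27.5 CPM). Hspa1a, a heat shock protein, was at 0.482 of cluster 0 after GM-CSF (13.6 against 28.5 CPM) and 4.93-fold higher in steady state (646 against 127 CPM). Zdhhc5, a palmitoyltransferase, was 2.04-fold above cluster 2 after GM-CSF (32.2 against 15.6 CPM) and at 0.439 of it in steady state, from 6 UMIs in cluster 1 (17.4 against 42.7 CPM).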

How the results depend on the processing

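No paired analysis was possible because each condition is 1 library, and no replicate could be left out. The share of P-III cells held by cluster 1 was 67.4% in G1 cells alone. The count of genes at least 2-fold above clusters 0, 2 and 3 was 0 with both libraries pooled, in G1 cells, at a minimum of 100 UMIs, with 1 count added, from the mean CPM of each cell and after thinning to 1000 UMIs, and 3 at a minimum of 20 UMIs (Polr3a, Rora and Sept8). Genes below all 3 numbered 1 with both libraries pooled (H2-Q6) and 2 at 20 UMIs (Ehf and Sdc4). Genes 2-fold apart in P-III cells numbered 332 of 4855 compared at 20 UMIs, 15 of 1062 at 100 and 2 of 315 after thinning. In P-IV cells they numbered 643 of 6573, 62 of 2176 and 29 of 549. The called share differed too, and its cause was not tested. The CD115 tag ratio was 1.90 with both libraries pooled, 1.32 in G1 cells, 1.54 per total tag and 1.20 against clusters 0, 2 and 3 alone, and the CD301b ratio 0.407, 0.247, 0.434 and 0.178. The share in S or G2/M was 27.0% when phases were scored again from thinned cells. Mrc1 against the highest of clusters 0, 2 and 3 turned to 0.963 after thinning, where 21 of 577 cells of cluster 1 had a UMI. Rora against the highest of the 3 was 5.33 after thinning, 1.60 with both libraries pooled and 1.77 from the mean CPM of each cell, and was above 1 in every setting tried. The thinned value rests on few cells, with a UMI of Rora in 11 of 577 cells of cluster 1 and in 2, 0 and 1 cells of clusters 0, 2 and 3. Alternatives for the counts against single clusters and for the positions between clusters 2 and 0 were chosen after seeing the data, and gave counts of 269 to 327 genes and positions of 0.57 to 0.58 and 0.45 to 0.47.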
